A study of Rattus norvegicus with 18 samples.

Results

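The ribosomal RNA gene stretch of rat chromosome 1 lies at chr1:11903758-11925879 in the rn6 build and holds the transcript NR_046238, which the RefSeq table of the GRCr8 build names Rn5-8s, the 5.8S ribosomal RNA. Its members were all CpGs between these positions that 4 or more of the 6 striata of each treatment had, with at least 10 reads per cytosine and both strands of a CpG added up. There were 419 members of 556340 CpGs in the whole series that met the same presence rule. The stretch was picked because differences between the treatments had been seen in it, so that differences in methylation between treatments, and counts of CpGs called for them, are given as a description from which nothing is read.

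Both striata of 9 juvenile male Wistar rats were measured by reduced representation bisulfite sequencing (RRBS), with 3 rats each for UNT, L-DOPA and L-DOPA + R. All rats, UNT included, had the dopamine neurons of the left side damaged by 6-hydroxydopamine in the medial forebrain bundle on postnatal day 21, and the striatum of that side is called lesioned and the other one control. From day 35 to day 49 and again on day 53, the day of collection, UNT rats received saline, L-DOPA rats levodopa with benserazide, and L-DOPA + R rats Riluzole in addition. There was no group without a lesion, and what was sequenced was DNA of whole striata, so that copies of the repeat and cell types cannot be told apart in any percentage.

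Ribosomal RNA is transcribed from tandem repeats, of which a genome holds many nearly identical copies. Each repeat is read as 1 precursor by RNA polymerase I and cut into the 18S, 5.8S and 28S RNA of the ribosome, and a spacer separates it from the next. In mammals some copies are active and others are kept silent, and methylation of CpGs in the silent copies is one of the marks that go with that state. Since the reads of all copies that map to a place are stacked there, an intermediate percentage is what a mixture of methylated and unmethylated copies gives.

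The order of the parts within the stretch was not read from rn6, whose sequence was not used here. In GRCr8 on chromosome 11, Rn5-8s stands between a ribosomal RNA gene of 4801 bases (LOC120093067) and one of 1872 bases (LOC120102105), the latter with the same length as Rn18s, the 18S RNA. The spacing of the CpGs called in the stretch was laid over 33365 windows of 300 bases around annotated gene starts. The window of Rn45sl2, a gene named for the ribosomal RNA precursor, fitted best. Here 11 of 11 CpGs called between chr1:11907924 and chr1:11908010 fell on a CG, and the next best window had 10 of 11. It is printed because it is the only sequence that could be tied to members, from GRCr8, chr11:239226-239525, forward strand, credited to RefSeq, with capitals at the CG of 5 members.

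Rn45sl2 window: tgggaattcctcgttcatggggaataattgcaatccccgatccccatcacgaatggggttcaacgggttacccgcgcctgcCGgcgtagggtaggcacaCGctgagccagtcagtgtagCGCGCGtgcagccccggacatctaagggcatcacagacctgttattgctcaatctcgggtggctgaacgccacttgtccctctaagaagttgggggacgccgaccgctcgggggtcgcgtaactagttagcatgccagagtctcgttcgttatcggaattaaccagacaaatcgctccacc

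Read on the opposite strand, this sequence belongs to the 18S RNA. The window holds 25 CG and 2 CCGG, the site cut by MspI, the enzyme that makes the RRBS fragments. The 5 capital CG correspond to the members at 11907968, 11907986, 11908006, 11908008 and 11908010, which had mean methylation levels of 42.1% in UNT, 28.4% in L-DOPA and 38.2% under L-DOPA + R. The match rests on the spacing of CG alone and was not checked against the bases of rn6.

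In total, 993 CpGs of the stretch were listed with at least 1 read, 677 had at least 10 reads in at least 1 striatum, and 258 of these were not members because too few striata had them. The 76 members with the lowest presence that the rule allows, 4 of 6 striata, had a mean level of 32.3%, and the 35 CpGs just outside, with 3 of 6, had 34.8%. The nearest tested CpG before the first member, at 11903631, had 33.7% in UNT, 14.6% in L-DOPA and 27.7% under L-DOPA + R, and the nearest one after the last, at 11925929, had 77.9%, 79.7% and 71.2%. The one before the start was lower than the first member in every treatment. Of the members, 316 were present in all 18 striata, and stretch means are means over these.

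The number of CpG calls lay between 18471279 and 49113957 per striatum. Members had a median of 83 reads in a striatum, and at that depth a level of 33.7% has a 95% Wilson interval from 24.5% to 44.4%, which covers the counting error only. Members had a median of 2.98 RPM (reads per 1000000 calls of the striatum), against 0.957 for all CpGs that met the presence rule. Members were thus read more deeply than other CpGs.

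The members were moderately methylated. Their median level was 33.1%, the middle 50% of them lay between 24.3% and 41.4%, and all CpGs under the same presence rule had a median of 47.9%. Levels between 20% and 80% were found in 354 members (84.5%), against 22.5% of all CpGs, most of which are nearly unmethylated or nearly fully methylated. Another 63 members were under 20% and 2 were over 80%. Neighbouring members were often close in level and sometimes not. The 3 members read most deeply lay within 1 short piece, at 11915762, 11915791 and 11915808, and had levels of 46.2%, 39.1% and 3.03%. The lowest of them stayed between 1.83% and 4.23% in all 18 striata, each with at least 1438 reads, while the first ranged from 32.5% to 60.2%. These reads at 11915808 came almost all from the forward strand. On the reverse strand, with a mean of 18.9 reads in 13 striata, the level there was 40.3%.

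**Figure D1:**
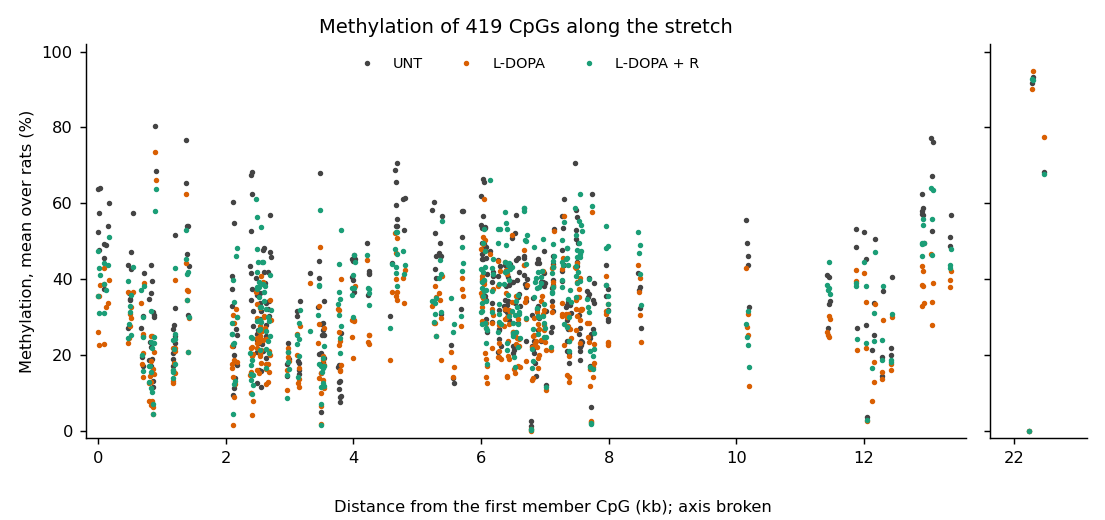
Methylation of the 419 members along the stretch. The x axis is the distance from the first member in kb, broken before the last 4 members, the y axis is the percentage of methylated reads, and each point is the mean over the rats of 1 treatment at 1 CpG. Most points lie between 20% and 80%, and the last members lie at 0% or above 60%.

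Members separated by more than 200 bases were counted as different blocks, which gave 17 blocks, 15 of them with at least 5 members and 412 members in all. The block at chr1:11909755-11911752 held 173 of the members and had a mean of 34.5%. Among the 15 larger blocks the highest mean was 50.3%, at chr1:11916673-11916837, and the lowest was 22.1%, at chr1:11906717-11907299. The lowest single levels of the first 13 kb were those at 11910536 and 11910538, with 0.66% and 1.08%. The last 4 members stood apart, since a gap of 8693 bases without a member lay before them. They were at 0% (11925817), 91.5% (11925830), 93.5% (11925835) and 71.1% (11925879). At 11925817 none of 367 reads was methylated, which allows a level of up to 0.817%. At 80 members both strands had at least 10 reads in 12 or more striata. Their levels differed between the strands by a median of 5.49 points, and by 10 points or more at 16 of them.

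The mean of the stretch differed more between the rats of a treatment than between the striata of a rat. Mean methylation over the 316 members was 40.3%, 25.2% and 46.2% in the rats 1, 2 and 3 of UNT. It was 28.1%, 19.3% and 36.2% in those of L-DOPA and 34.4%, 21.5% and 45.0% in those of L-DOPA + R. Each treatment had a rat near 20% to 25% and one above 36%, and the ranges of the 3 treatments overlapped. The 2 striata of a rat lay close together, at 24.0% and 26.4% in UNT rat 2 and at 45.3% and 47.1% in UNT rat 3, control before lesioned. The smallest distance was 0.139 points in L-DOPA + R rat 2 and the largest 5.12 points in L-DOPA + R rat 1.

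**Figure D2:**
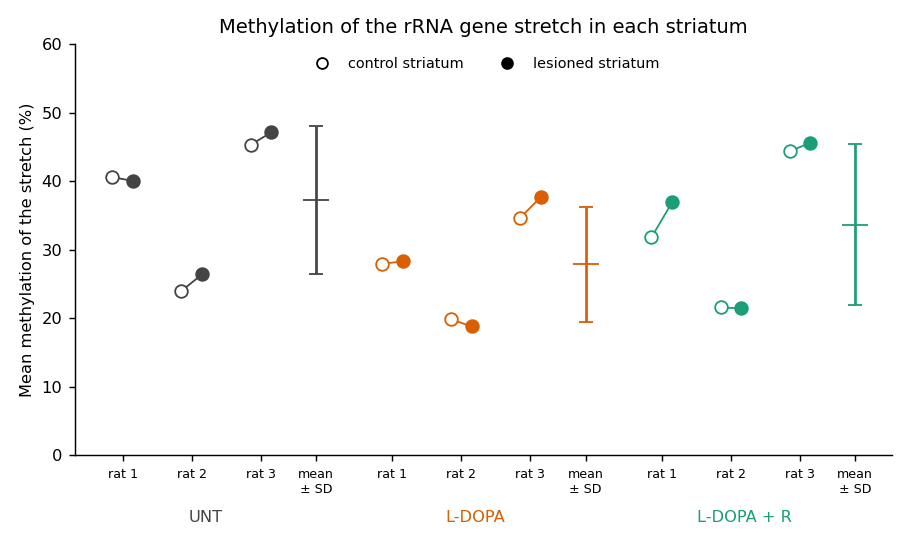
Mean methylation of the stretch in each of the 18 striata. The y axis is the percentage of methylated reads averaged over 316 CpGs, open circles are control and filled circles lesioned striata, lines join the striata of a rat, and bars give the mean ± SD of the 3 rats. Striata of 1 rat sit within 5.12 points, while the rats of L-DOPA + R run from 21.5% to 45.0%.

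Agreement of both striata of a rat was tested on the deviations from the means of treatment and side, with an exact permutation of the rats within treatments. Over the 9 rats, Pearson's r was 0.98 (two-sided exact p = 0.00463, the smallest that 216 arrangements can give) and Spearman's rho was 0.917 (exact p = 0.00926). Without UNT rat 2 and L-DOPA + R rat 2, the ones farthest from the median, r was 0.961 (exact p = 0.0417) and rho was 1 (exact p = 0.0833). The mean over all CpGs present in the 18 striata lay between 46.6% and 49.4%, and over the rats its deviations had an r of 0.381 with those of the stretch (rho = 0.333, exact permutation p = 0.426 and 0.569). The spread between rats in the stretch was thus not matched by a spread of that size over the genome.

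CpG by CpG, rats within treatments were compared with a logistic model, both striata of a rat serving as its replicates, a test that was added after the values had been seen. Of the 316 members, 191 (60.4%) differed between rats at a q under 0.01, against 0.639% of all 294959 CpGs tested. Among CpGs with levels of 20% to 80% the share was 1.68%, and among those outside the stretch with such levels and a median of at least 50 reads it was 2.10%. The SD between rats had a median of 10.4 points in members, 3.20 points over all CpGs, 6.78 points in those with levels of 20% to 80%, and 5.09 points in the deeper ones outside the stretch. The difference between the striata of a rat had medians of 5.38 points in members and 5.18 points over all CpGs. At levels of 20% to 80% it was 5.86 points in members, 10.95 points in all such CpGs and 8.01 points in the deeper ones outside the stretch. The SD between rats of members at such levels was 11.2 points. At such levels members thus differed more between rats and less between the striata of a rat. They were also read more deeply, with a median of 88.5 reads, against 33 in all such CpGs and 65 in the deeper ones outside the stretch. The part of depth in this was not tested. With an F test, 80 of the 316 were called, against 0.0878% of all CpGs. Members of 1 read fragment share reads and are not independent of each other.

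The block at chr1:11912226-11912274 showed the widest range, and all 5 of its members were called between rats. The rats 1, 2 and 3 had block means of 29.2%, 7.0% and 69.4% in UNT, 43.6%, 5.15% and 55.9% in L-DOPA, and 41.6%, 25.3% and 66.7% under L-DOPA + R. Its first member, at 11912226, was chosen for description after its values had been seen. It had 36.8%, 10.6% and 77.3% in the control striata of UNT and 34.9%, 11.7% and 79.1% in the lesioned ones. In L-DOPA these were 52.8%, 9.89% and 68.0% on the control and 56.6%, 7.52% and 67.1% on the lesioned side. In L-DOPA + R they were 44.3%, 33.1% and 74.1% on the control and 53.6%, 32.03% and 76.3% on the lesioned side. The striata of each rat were on the same side of every other rat of their treatment. The Wilson intervals of these values, from 580 to 3332 reads, were between 2.85 and 8.06 points wide, narrower than the distances between the rats of a treatment.

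In the largest block, 2 other CpGs had a very wide range. At 11909905 the rats 1, 2 and 3 had 44.7%, 13.3% and 84.2% in UNT, 57.5%, 4.44% and 78.0% in L-DOPA, and 68.4%, 50% and 79.7% under L-DOPA + R. At 11911710 they had 42.1%, 8.60% and 80.4% in UNT, 55.6%, 7.07% and 59.9% in L-DOPA, and 44.0%, 40.3% and 78.1% under L-DOPA + R. In both, rat 2 was the lowest and rat 3 the highest of each treatment.

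The same order was found widely. Rat 2 had the lowest level of its treatment in 294 of the 316 members in UNT, in 205 in L-DOPA and in 305 in L-DOPA + R. Rat 3 had the highest level in 174, 251 and 279 of them. By blocks, rat 2 was the lowest in all 3 treatments in 10 of 15 blocks, and rat 3 the highest in 9. The block at chr1:11913917-11913965 went another way in UNT and in L-DOPA, at a median of 17.5 reads in each. The rats 1, 2 and 3 had 54.0%, 63.0% and 19.6% in UNT and 18.9%, 41.2% and 28.8% in L-DOPA, so that rat 2 was the highest in both. At 11916837 too, rat 2 of L-DOPA was the highest of its group with 42.3%, against 34.6% and 39.8%. The labels do not say that a number marks anything shared by rats of different treatments.

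**Figure D3:**
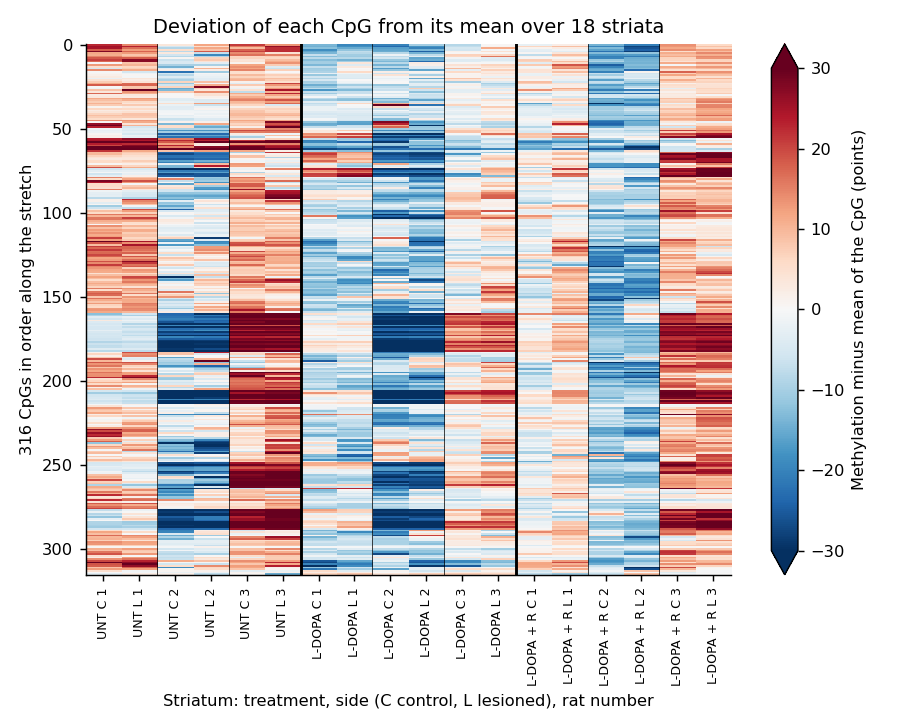
Deviation of each of 316 members (rows, in their order along the stretch) from its own mean over the 18 striata (columns, grouped by treatment and rat, control before lesioned), in percentage points on a colour scale that ends at -30 and 30. The 2 columns of a rat look alike, and the columns of rat 2 are mostly blue and those of rat 3 mostly red.

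Read depth of the stretch varied between rats together with the methylation. Per 1000 calls of a striatum, the stretch took 4.68, 3.00 and 4.90 calls in the rats 1, 2 and 3 of UNT, 3.56, 3.55 and 4.36 in those of L-DOPA, and 3.78, 3.40 and 4.61 in those of L-DOPA + R. In UNT and under L-DOPA + R, rat 2 had the lowest depth and the lowest methylation, while in L-DOPA the rats 1 and 2 were nearly equal in depth. The depth in the 2 striata of a rat had an r of 0.992 and a rho of 0.983 over the 9 rats after the treatment means were taken out (exact permutation p = 0.00926 for both). Depth and methylation had an r of 0.917 and a rho of 0.967 (exact permutation p = 0.00463 for both, the smallest possible). These relations and that with the mean over all CpGs were computed after the values had been seen, and over these 3 the adjusted p of r was 0.0139 for each of the first pair. Without UNT rat 2 and UNT rat 3, r was 0.990 for the striata of a rat (exact p = 0.0556) and 0.927 for depth and methylation (exact p = 0.0833). With 7 rats and 36 arrangements left, neither passed 0.05. Counted on cytosines with at least 10 reads, r was 0.888 and 0.855 (exact permutation p = 0.00463 and 0.0278), and L-DOPA rat 1, not rat 2, had the lowest depth of its treatment. Whether the number of repeat copies differed between the rats was not tested.

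**Figure D4:**
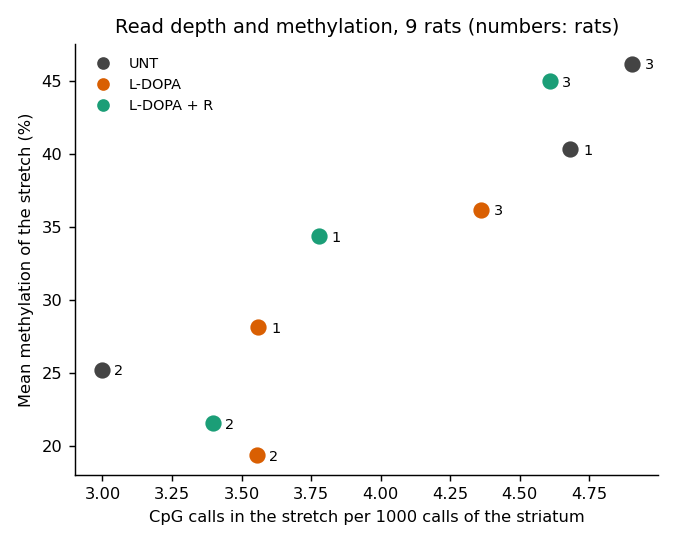
Read depth and methylation of the stretch in 9 rats. The x axis is the number of CpG calls in the stretch per 1000 calls, the y axis the mean methylation of 316 CpGs in percent, both as means of the 2 striata of a rat, and numbers give the rat within its treatment. The 3 rats with 4.61 calls per 1000 or more have levels from 40.3% upward, and the rats numbered 2 lie at the lower left.

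Lesioned and control striata, whose comparison the choice of the stretch did not use, were close to each other. In UNT 0 of 331 members tested were called at a q under 0.01 (background 0.00193% of all CpGs tested), in L-DOPA 0 of 364 (0.00101%) and in L-DOPA + R 0 of 414 (0.00176%). At an unadjusted p under 0.05 there were 5, 5 and 7 members, or 1.51%, 1.37% and 1.69%, from the logistic model with a chi-square test. Over all CpGs these shares were 6.45%, 5.40% and 6.29%. This model does not pair the striata of a rat. With the rat as a block there were again 0 calls, and 17, 13 and 31 members had an unadjusted p under 0.05, or 5.14%, 3.57% and 7.49%, against 7.48%, 5.89% and 7.41% of all CpGs. With all 9 rats and the rat as a block, 0 of 316 members were called (background 0.0078%), and 31 (9.81%) had an unadjusted p under 0.05, against 7.51% of all CpGs.

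The member with the smallest q between sides was 11911243, with a q of 0.106 from the logistic model with Benjamini-Hochberg adjustment and a difference of 5.40 points, lesioned minus control. Its control striata had 44.0%, 22.2% and 62.7% in UNT, 24.4%, 7.55% and 39.2% in L-DOPA and 28.9%, 20% and 44.3% under L-DOPA + R. Its lesioned striata had 34.3%, 28.6% and 69.7%, then 28.4%, 14.8% and 48.4%, and then 43.5%, 22.4% and 51.7%. The lesioned side was thus higher in 8 of 9 rats, all but UNT rat 1, and the sides overlapped in every treatment. The Wilson intervals of these striata were between 8.44 and 36.2 points wide. Within UNT the smallest q was 0.314, at 11916183, with 21.4%, 12% and 16.5% in control and 31.9%, 25% and 26.8% in lesioned striata. There the lesioned values of UNT lay above all control values, while in L-DOPA they were 12.8%, 16% and 17.1%, against 13.4%, 23.4% and 23.0%.

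Averaged over the stretch, the lesioned side was higher in 6 of 9 rats. The difference was 1.36 ± 1.97 points (SD, n = 9 rats), from -1.04 to 5.12 points (two-sided exact sign-flip permutation test, p = 0.0703). By treatment it was 1.24 ± 1.58 points in UNT, 0.775 ± 2.07 points in L-DOPA and 2.05 ± 2.73 points in L-DOPA + R (SD, n = 3 rats each). The difference did not exceed the spread between rats at 0.05. Without UNT rat 1 it was 1.59 points and without L-DOPA rat 2 it was 1.66 points (exact p = 0.0469 for both), and the largest single difference, in L-DOPA + R rat 1, took it to 0.887 points when left out. The depth of the stretch differed between the sides by -0.0208 ± 0.118 calls per 1000 (exact sign-flip permutation p = 0.598, n = 9 rats).

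Between the treatments, the members were mostly lower in L-DOPA than in UNT. Of the 419 members, 360 were lower and 58 higher, with a median difference of -8.58 points, against -0.00940 points over all CpGs tested. At a q under 0.01, 36 members (8.59%) were called, 35 lower and 1 higher, where the background was 0.351% in all and 0.269% for lower ones. L-DOPA + R against UNT had 275 lower and 143 higher members, a median of -4.07 points (over all CpGs -0.254) and 9 called members (2.15%), all lower, with a background of 0.445% in all and 0.361% for lower ones. L-DOPA + R against L-DOPA had 355 higher and 63 lower members, a median of 6.47 points and 1 called member, at 11916837 (0.239%, background 0.0477%). The first and the second of these comparisons share the UNT striata. Of the called members, 7 were called in both, which is 19.4% of those of L-DOPA and 77.8% of those of L-DOPA + R. Nothing is read from these shares, since the stretch was chosen on the same contrasts. The calls count the 6 striata of a treatment as replicates, although they come from 3 rats, and with the rat as the unit they were 16, 8 and 0. Shares over all CpGs with the rat as the unit or with a rat left out were not recorded. Single rats moved the counts widely. Those of L-DOPA against UNT were 15, 61 and 18 without the rats 1, 2 and 3 of UNT, and 13, 18 and 88 without those of L-DOPA. Those of L-DOPA + R against UNT went to 26 without UNT rat 1, of which 19 were higher in L-DOPA + R, and to 28, all lower, without L-DOPA + R rat 3. The 1 member of L-DOPA + R against L-DOPA turned to 0 without any of L-DOPA rat 1, L-DOPA rat 3, L-DOPA + R rat 1 and L-DOPA + R rat 3, and to 11 without L-DOPA + R rat 2.

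The mean of the stretch was 37.2% ± 10.8 in UNT, 27.9% ± 8.41 in L-DOPA and 33.6% ± 11.7 under L-DOPA + R (SD, n = 3 rats each). L-DOPA was thus 9.36 points below UNT, with an SD between rats of 9.70 points, and L-DOPA + R was 3.62 points below UNT, with an SD of 11.3 points. L-DOPA + R was 5.74 points above L-DOPA, with an SD of 10.2 points, and 0.0665 to 11.8 points above it with a rat left out. None of these differences exceeded the spread between rats. Without UNT rat 3 or without L-DOPA + R rat 2, L-DOPA + R lay above UNT instead, by 0.861 and 2.43 points. From summed reads, in which the deepest CpGs weigh most, it lay above by 0.112 points, and the difference of L-DOPA from UNT was -5.63 points. L-DOPA remained below UNT with every rat left out in turn, by between 4.88 and 15.4 points.

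The 3 largest differences of L-DOPA from UNT lay in 1 short piece at chr1:11906146-11906165. At 11906165 the rats had 72.2%, 65.2% and 67.6% in UNT, 0.877%, 4.65% and 6.93% in L-DOPA, and 8.14%, 1.82% and 19.4% under L-DOPA + R. Over the striata, UNT ranged from 64.7% to 74.8% with a median of 67.5%, L-DOPA from 0% to 8.11% with a median of 4.67%, and L-DOPA + R from 0% to 21.6% with a median of 8.06%. No striatum of UNT overlapped with one of the treated groups there. The differences from UNT were -64.2 points in L-DOPA and -58.5 points in L-DOPA + R.

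The 3 named CpGs before it went the same way with smaller differences. At 11906162 the means were 62.3% ± 5.88 in UNT, 19.8% ± 4.43 in L-DOPA and 24.6% ± 9.01 under L-DOPA + R (SD, n = 3 rats each). At 11906149 they were 67.4%, 21.96% and 24.7%, and at 11906146 they were 52.6%, 15.5% and 17.4%. These CpGs had between 1.73 and 2.02 RPM in every treatment, so that their mean depth was alike in the groups. At 11906146 and 11906149 the called cytosine lay 46 to 50 bases past another one of the same strand, which holds for 26.5% of members and 13.9% of all CpGs, and such a cytosine can stand at the last bases of a read of 50 bases. At 11906162 and 11906165 it did not.

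At the opposite end of the first 13 kb, 11916837 had 82.5%, 68.9% and 77.2% in UNT, 34.6%, 42.3% and 39.8% in L-DOPA and 71.9%, 52.6% and 66.1% under L-DOPA + R. L-DOPA was lower than both other groups in every rat, by 37.3 points from UNT and 24.6 points from L-DOPA + R, and UNT and L-DOPA + R overlapped. The first member of the stretch, 11903758, had 52.5% ± 6.04 in UNT, 26.2% ± 6.24 in L-DOPA and 35.7% ± 13.7 under L-DOPA + R (SD, n = 3 rats each). The 1 member called higher in L-DOPA was the last one, 11925879, with 77.4% ± 1.29 against 68.2% ± 2.70 in UNT. It belongs to the 4 members past the gap. No member was called higher in L-DOPA with the F test, or without UNT rat 2, UNT rat 3, L-DOPA rat 1 or L-DOPA rat 3. There was 1 without UNT rat 1, without L-DOPA rat 2 and with the rat as the unit. At these 3 CpGs all rats of L-DOPA were read more deeply than those of UNT. The depth was 1.28 RPM in UNT and 3.89 in L-DOPA at 11916837, 1.48 and 3.95 at 11903758, and 2.49 and 13.5 at 11925879.

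Some members were higher in L-DOPA + R than in UNT, without being called. The largest such difference was 35.4 points, at 11911313, where the rats 1 and 2 of UNT had 46.7% and 7.43% and the 3 rats of L-DOPA + R had 59.3%, 46.3% and 81.6%. UNT rat 3 and L-DOPA rat 3 had under 10 reads per cytosine there in both striata and are missing from the means, while UNT rat 1 had 1001 and 1253 reads. The same rats were missing at 11907523, where UNT rat 1 had 724 and 830 reads. At 11905852 UNT rat 2 was missing instead, and UNT rat 1 had 12 and 17 reads against 194 and 171 in UNT rat 3. Both striata of a rat thus had or lacked reads together at these CpGs, and the cause was not tested. The difference was 55.0 points without UNT rat 1, 15.7 points without UNT rat 2 and 24.6 points from summed reads. The largest difference of L-DOPA + R from L-DOPA after that at 11916837 was 24.4 points, at 11906237, with all 3 rats of each group. It was 39.999 points without L-DOPA rat 1, 10.5 points without L-DOPA rat 2 and 14.8 points without L-DOPA + R rat 3, and 15.2 points from summed reads. At 11906251, 11911313 and 11911324, L-DOPA + R lay above L-DOPA by 22.9, 22.2 and 22.1 points, each from 2 rats of L-DOPA. Without L-DOPA rat 1 these were 54.9, 58.7 and 52.1 points, and without L-DOPA rat 2 it lay below instead, by 9.16, 14.2 and 7.89 points.

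By blocks, all members of 7 of the 15 larger blocks were lower in L-DOPA than in UNT, among them the block at chr1:11903758-11903919 with 11 of 11 members, 52.8% ± 9.18 in UNT and 33.6% ± 7.53 in L-DOPA. The largest block difference was at chr1:11916673-11916837, with 61.6% ± 9.14 in UNT and 37.7% ± 16.8 in L-DOPA (SD, n = 3 rats each). The smallest was at chr1:11912226-11912274, with 35.2% ± 31.7 and 34.9% ± 26.5, the block in which the rats were farthest apart.

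Read depth did not move evenly with treatment. The stretch as a whole took 4.19 ± 1.04 calls per 1000 in UNT, 3.83 ± 0.464 in L-DOPA and 3.93 ± 0.620 under L-DOPA + R (SD, n = 3 rats each). The exact permutation test gave a p of 0.8, 0.8 and 0.7 for the 3 comparisons, where 3 rats against 3 cannot go below 0.10. Counted on cytosines with at least 10 reads, L-DOPA and L-DOPA + R lay above UNT instead, by 0.345 and 0.383 calls per 1000 (exact permutation p = 0.6 and 0.7). Single members differed far more. The ratio of depth in RPM of L-DOPA to UNT had a median of 1.84 over members and 1.01 over all CpGs, and for L-DOPA + R to UNT it was 1.96 and 1.04. The rats of L-DOPA were all above those of UNT at 206 members (49.2%, background 15.8%) and all below at 22 (5.25%, background 12.5%). For L-DOPA + R these were 217 (51.8%, background 16.2%) and 13 (3.10%, background 11.3%).

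The block at chr1:11904928-11905179 had a median of 27.9 RPM in UNT, 6.82 in L-DOPA and 16.0 under L-DOPA + R, while that at chr1:11905852-11905931 had 1.81, 8.70 and 11.5. The latter medians do not hold for each part of the block. At 11905872 UNT rat 1 had 15 and 17 reads and UNT rat 3 had 196 and 171. At 11905922 UNT rat 1 had 1619 and 1903 reads, UNT rat 3 had 90 and 65, and L-DOPA rat 1 had 320 and 273. The deepest block, at chr1:11912226-11912274, had 41.7, 43.0 and 37.4 RPM. The widest ratio was at 11910165, with 0.528 RPM in UNT, 44.8 in L-DOPA and 40.7 under L-DOPA + R. UNT striata had 11 to 31 reads there, but 539 to 3689 at the neighbouring member 11910163. L-DOPA striata had 642 to 2195 and 659 to 2213. At 11910165 both strands had at least 10 reads in only 12 striata, with means of 963.7 forward and 48.5 reverse reads. The ratio thus holds for that CpG and not for its neighbour, and its cause was not tested. Against UNT, the difference in methylation went along with that of depth. The 276 members with at least as much depth in L-DOPA as in UNT had a median difference of -11.5 points, and 261 of them were lower. The 50 members with under 0.5 of the depth had a median of -1.47 points, and 30 were lower. In L-DOPA + R against UNT, the 282 members with at least as much depth had a median of -7.46 points and the 11 with under 0.5 had 11.5 points. Over the 419 members, log2 depth ratio and difference had an r of -0.43 in L-DOPA and -0.47 under L-DOPA + R, as a description, since members share fragments and libraries and both comparisons share the UNT striata. For L-DOPA + R against L-DOPA r was 0.06, so that no such relation was seen there. Of the 36 members called in L-DOPA, 22 had all treated rats above UNT in depth, 14 overlapped and 0 were below. Of the 9 called under L-DOPA + R, 2 were above and 7 overlapped. The part of read depth in the differences of methylation was not tested.

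**Figure D5:**
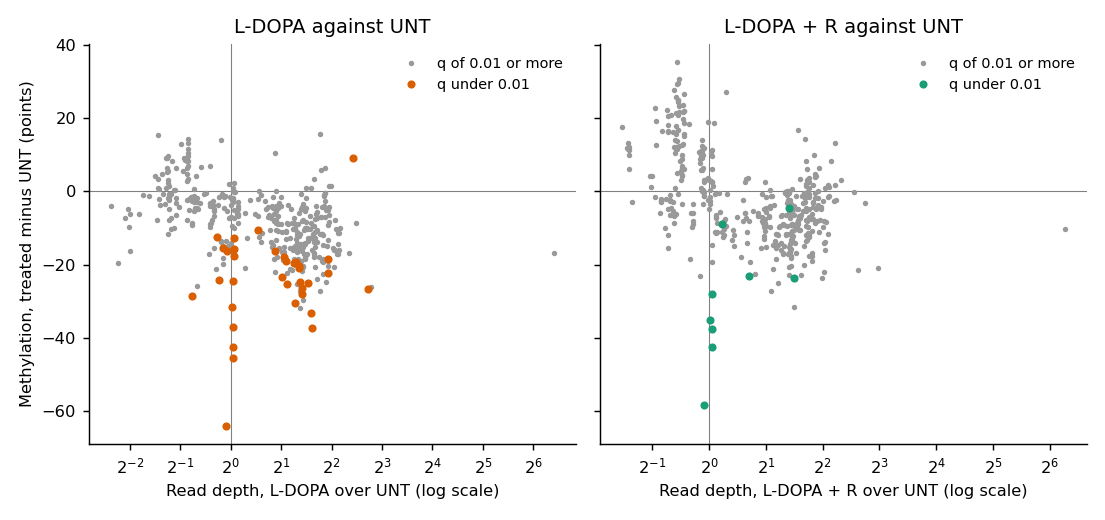
Methylation difference from UNT in points (y axis) against the ratio of read depth to UNT (x axis, log scale) for the 419 members, in L-DOPA (left) and L-DOPA + R (right). Coloured points are the 36 and 9 members with a q under 0.01, shown as a description, and the lowest point of each panel, near a ratio of 1, is 11906165.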

How the data were processed

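RRBS calls of 18 striata were used. The authors trimmed the reads with Trim Galore 0.4.0, mapped them to rn6 with Bismark and listed CpG cytosines by strand. The deposited coverage is a count of reads per cytosine, without a minimum or normalization, and the deposited percent gives the share read as C or T. Methylated reads were rebuilt from both. The 2 strands were added up after cytosines under 10 reads were dropped, and spike-in sequences were left out.

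The test of methylKit was written anew in Python 3.11.15 (numpy 2.4.6, scipy 1.17.1): a logistic model per CpG with overdispersion from Pearson residuals, chi-square test and Benjamini-Hochberg adjustment over all tested CpGs, q under 0.01. In a test on simulated data of 20000 CpGs with 200 changed by 30 points, it recovered 194 with 6 against 6 striata (1 false call), 173 with 3 against 3 (2 false), 200 with 9 pairs (1 false) and 190 between rats (4 false). The simulated reads held the counting error only, without a spread between rats or striata. These numbers therefore do not show how many false calls the test makes where rats differ, as in the stretch. The members and the rules for named CpGs were chosen with earlier results of these data known. Named were the first and the last member, those with the highest and lowest levels, most reads and widest range of rats, and those with the largest differences of treatments or smallest p of sides.

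The labels give a treatment, a side and a replicate number, but no rat. That both striata with a number come from 1 rat is inferred from the number. Their deviations correlated at 0.0336 to 0.112 over all CpGs and at 0.424 to 0.812 over members. The striata of 1 rat depend on each other. Permutation tests over rats, and the logistic model with the rat as the unit, measure the spread between these rats and libraries. The other logistic models measure the spread between striata. With the rat as a block, and in the comparison of rats, that is the spread within a rat. Levels per rat are from the reads of both striata, and stretch means are means of striata. Alternatives were other read minimums, tests and units, cytosines near read ends left out, strands, denominators, sides and each rat left out. The comparison of rats, the relations with read depth and their alternatives were added after seeing the data.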

Additional observations from a re-analysis of the deposited data

How the results depend on the processing

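Members called in L-DOPA against UNT, L-DOPA + R against UNT and L-DOPA + R against L-DOPA numbered 36, 9 and 1. They numbered 7, 3 and 0 with the F test, 206, 153 and 113 without the overdispersion correction, 11, 6 and 0 in control striata alone and 15, 5 and 0 in lesioned ones. With the rat as the unit there were 16, 8 and 0, and without cytosines 46 to 50 bases past another one 18, 5 and 1. Leaving out each rat gave 13 to 88, 7 to 28 and 0 to 11. The replicate number as a block gave 100, 39 and 19, but same-numbered rats of different treatments are different animals, and their deviations had a mean r of -0.00309 over all CpGs and 0.352 over members (-0.431 to 0.766). For rats with different numbers the mean r was 0.00155 and -0.189, so that within the stretch same-numbered rats were more alike on average, but not in every pair. A minimum of 20 reads, a limit on coverage and presence in all 12 striata kept each count within 1.5 times. Shares over all CpGs were not recorded for these alternatives, so that the counts do not tell whether a change is particular to the stretch.

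Between the sides, the rat as a replicate block left 0 calls in each treatment, and without the block there were 0 in all rats, while without the overdispersion correction there were 10 in UNT, 4 in L-DOPA, 6 in L-DOPA + R and 5 in all rats. The shares of all CpGs called under these settings were not recorded either. The side difference of the stretch mean was between 0.887 and 1.66 points with a rat left out, with an exact permutation p of 0.0469 without UNT rat 1 or L-DOPA rat 2. Without the replicate block its p over 9 against 9 striata was 0.772 (permutation test), for the same 1.36 points. The F test called 80 of 316 members between rats. Leaving out a rat gave 143 to 197.

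Counted on cytosines with at least 10 reads, depth differences turned to 0.345 and 0.383 calls per 1000 for L-DOPA and L-DOPA + R against UNT, and to 0.0639 between sides. With a rat left out, depth differences ran from -0.967 to -0.0138 for L-DOPA against UNT and from -0.865 to 0.0881 for L-DOPA + R against UNT. They ran from -0.238 to 0.370 for L-DOPA + R against L-DOPA and from -0.0447 to 0.00113 between sides. The relations of depth had an r of 0.990 and 0.927 without the 2 rats farthest from the median. L-DOPA + R minus L-DOPA ran from -14.2 to 58.7 points at 11911313, from -9.16 to 54.9 at 11906251 and from -7.89 to 52.1 at 11911324 with a rat left out, lowest without L-DOPA rat 2 and highest without L-DOPA rat 1, where L-DOPA had 4 striata of 2 rats. The causes of these changes were not tested.

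The number of 3 rats a treatment and the spread between them limit every comparison of treatments here. At a single CpG the depth limits the precision, and members of one read fragment share reads.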
